A study of Mus musculus with 7 samples.

Results

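The 10 genes described here are mouse glutathione transferases outside the alpha and mu classes: Gsto1 and Gsto2 (omega), Gstp1 (pi), Gstt1 and Gstt2 (theta), Gstz1 (zeta), Gstk1 (kappa), and the membrane enzymes Mgst1, Mgst2 and Mgst3. They were taken by gene symbol from a list of names, and all 10 were found among the 21861 rows of the count table. The RNA came from aged mice, from the retinal pigment epithelium (RPE) that nourishes the photoreceptors and takes up their shed membrane. The mice had been given an adeno-associated virus (AAV), a vector for gene delivery to non-dividing cells. The AAV-GFP group (3 libraries, labelled Old-GFP) received a vector for green fluorescent protein and the AAV-GSTA4 group (4 libraries, labelled Old-GSTA4) one for the alpha-class transferase GSTA4, and both were collected 12 weeks after treatment. All 7 libraries came from aged animals given a vector, and no untreated group is among them. Replicate numbers are those of the sample titles. Strain, sex, exact age, vector promoter and dose, and whether eyes or animals were pooled, are not given in the sources used here. Nothing says that the replicates are separate animals, so p-values measure only the spread between these libraries.

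Glutathione transferases use the tripeptide glutathione to detoxify reactive compounds or to reduce oxidised ones. The soluble classes share a thioredoxin-like fold, whereas the microsomal enzymes are small membrane proteins of the family that also makes leukotrienes and prostaglandin E. In the eye the RPE faces light, high oxygen and the daily intake of lipid-rich outer segment membrane, and in the primate macula the pi-class enzyme is known as a zeaxanthin-binding protein.

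None of the 10 genes passed the adjusted threshold between the groups. The 2 genes with the smallest p-values were the theta-class Gstt2, at 1.72 times its AAV-GFP mean in AAV-GSTA4, and the omega-class Gsto1, at 0.446 times. The other 8 had log2 fold changes between -0.48 and 0.45. Gsto1 held most of the family's counts in 5 of the 7 libraries, and its level spanned 12.1-fold over the libraries.

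Total counts ranged from 15329181 to 28998964 per library, and levels are given as CPM, counts per 1000000 counts after trimmed-mean (TMM) scaling of the libraries. Human GSTA4 transcripts were at 2.64 to 251 CPM in AAV-GSTA4 and at most 0.140 CPM (3 counts) in AAV-GFP. Transcripts of green fluorescent protein (d2EGFP) were at 4.61, 153 and 113 CPM in AAV-GFP, in replicate order. In AAV-GSTA4 they were at 8.58, 3.07, 0.411 and 0.959 CPM, so the groups overlapped on them. All 18 RPE markers examined had counts in every library, and so had all 20 rod photoreceptor markers, whose summed level was 18728 to 47938 CPM in AAV-GFP and 9791 to 17237 CPM in AAV-GSTA4. AAV-GFP replicate 3 stood apart, with a mean correlation with the other libraries of 0.838 against 0.910 to 0.926 for the rest, a TMM factor of 1.36, and 24435 CPM on the RPE markers against 58653 and 73417 CPM in the other AAV-GFP libraries. It had the lowest TMM-scaled level among the AAV-GFP libraries for 8 of the 10 transferases. The factor of 1.36 scales its levels down, and this count was not taken on library totals or over all genes. In bulk RNA, fewer cells of a type and less RNA per cell cannot be told apart.

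The 10 genes lie on 6 chromosomes (GENCODE M21, GRCm38). Gsto1 (chr19:47854970-47864790, plus strand) and Gsto2 (chr19:47865534-47886324, plus strand) are neighbours in the same orientation, with 743 bases between them. Gstp1 lies on chr19 as well (chr19:4035407-4037985, minus strand), beside its near copy Gstp2. Gstt1 (chr10:75783813-75798584, minus strand) and Gstt2 (chr10:75831114-75837424, minus strand) belong to a cluster of theta genes that spans 63.3 kb with Gstt3 and Gstt4. RefSeq promoter windows (GRCm38.p6, 250 bases before to 50 after a start) were matched for 9 of the 10 genes. Gsto2, Gstz1 and Mgst1 had 2 windows each. The counts that follow are of genes with a match in any window, whereas the percentages are of single windows. The antioxidant response element core TGACNNNGC, searched on both strands, occurred in 1 of the 9 (Mgst1) and in 12.4% of all 32851 windows. The AP-1 motif TGANTCA, which is its own reverse complement, occurred in 2 of the 9 (Gstp1 and Mgst2) and in 7.81% of all windows. The 2 motifs can overlap. In Gstp1 the AP-1 match TGAGTCA is followed by GC, and this stretch differs from the core TGACNNNGC at 1 base. A match describes the letters only and is not a measured binding site.

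The 100 bases before the start are shown for the 2 omega neighbours, whose levels differ most within a class, for Gstp1 and its near copy Gstp2, and for Mgst1. Capitals mark a match to either motif, and each sequence is on the gene's strand. The windows are chr19:47854873-47854972 (Gsto1), chr19:47865445-47865544 (Gsto2), chr19:4037913-4038012 (Gstp1), chr19:4042222-4042321 (Gstp2) and chr6:138140427-138140526 (Mgst1).
Gsto1: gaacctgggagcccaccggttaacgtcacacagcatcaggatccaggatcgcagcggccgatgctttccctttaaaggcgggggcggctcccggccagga
Gsto2: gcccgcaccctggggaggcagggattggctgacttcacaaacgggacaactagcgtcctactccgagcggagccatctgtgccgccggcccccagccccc
Gstp1: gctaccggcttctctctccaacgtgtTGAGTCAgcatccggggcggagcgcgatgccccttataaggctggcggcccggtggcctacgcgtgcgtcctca
Gstp2: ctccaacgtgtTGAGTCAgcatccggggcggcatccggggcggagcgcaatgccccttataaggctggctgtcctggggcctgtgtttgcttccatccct
Mgst1: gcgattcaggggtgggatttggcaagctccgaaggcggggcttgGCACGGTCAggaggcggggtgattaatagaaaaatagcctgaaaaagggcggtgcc

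Levels between genes were compared per kilobase of the longest coding transcript, as the median over the 7 libraries. Gsto1 was highest at 1472 CPM per kb, with a range of 176 to 2135 CPM per kb that reached down to the next gene. It was followed by Gstp1 at 225 and Mgst1 at 220 CPM per kb, whose ranges over libraries (183 to 305 and 57.3 to 341 CPM per kb) overlapped. Gstt1, Gstt2, Gstz1, Mgst3 and Gstk1 followed at 70.7, 49.1, 44.3, 41.4 and 39.4 CPM per kb, each with a range that overlapped its neighbour's. By group means Gstt2 was below Gstz1 and Mgst3 in AAV-GFP (35.9 against 41.1 and 42.4 CPM per kb) and above them in AAV-GSTA4 (61.5 against 48.3 and 44.3 CPM per kb). Gsto2 at 2.52 (2.14 to 4.13) and Mgst2 at 0.557 (0.398 to 3.73) CPM per kb were lowest, and their ranges overlapped. With the union of annotated exons as length, Gstp1 and Mgst1 changed places and so did Gstt2, Gstz1, Mgst3 and Gstk1 among themselves, while Gsto1, Gstt1, Gsto2 and Mgst2 held their ranks. The 2 omega genes, adjacent on the chromosome, thus stood at the top and next to last of the 10 in level per length.

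**Figure D1:**
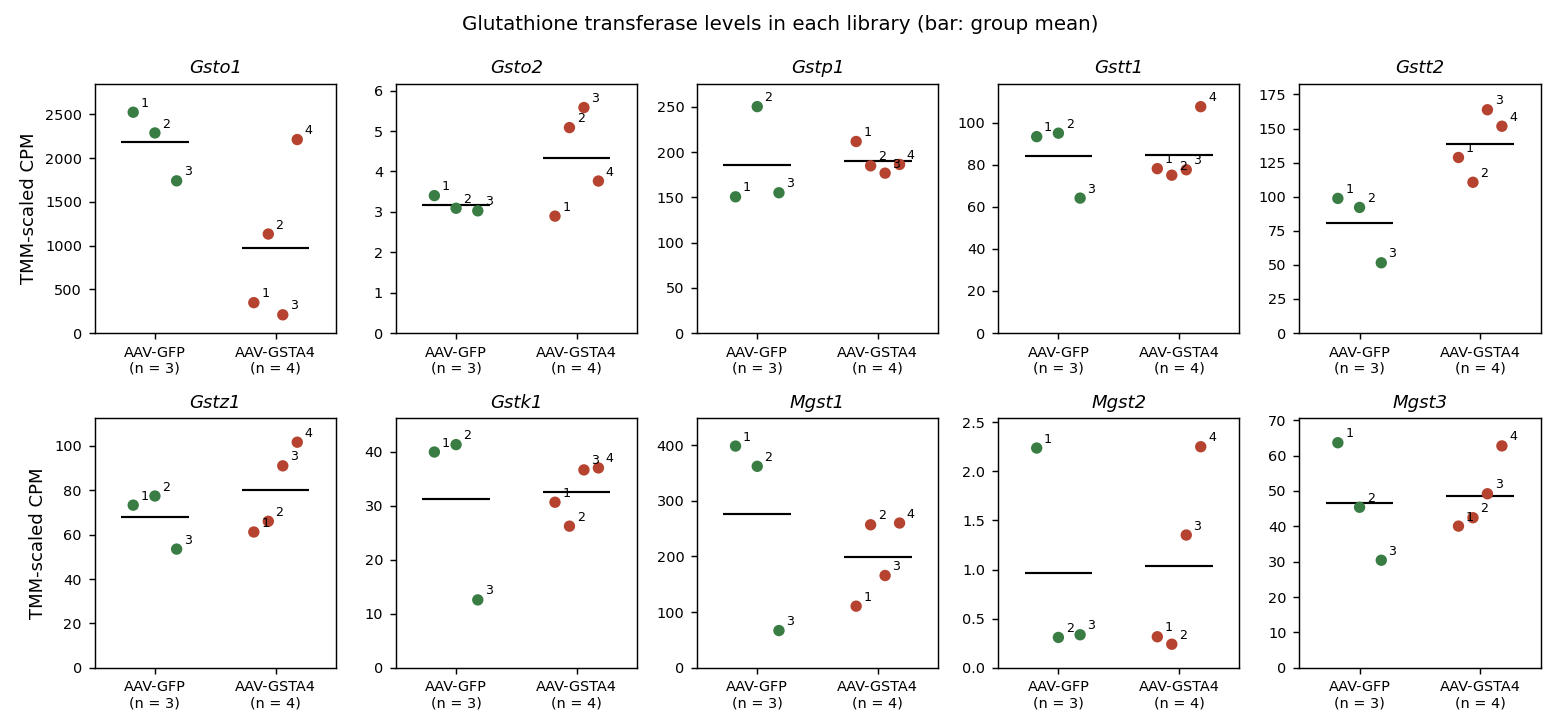
Level of each of the 10 transferases (vertical axes, TMM-scaled CPM, each starting at 0) in the 3 AAV-GFP and 4 AAV-GSTA4 libraries; points are libraries with their replicate numbers and bars are group means. Gstt2 is the gene whose groups do not overlap, and Gsto1 is at 347 and 208 CPM in AAV-GSTA4 replicates 1 and 3 but at 2212 CPM in replicate 4.

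The omega enzymes reduce dehydroascorbate and methylated arsenic and act as thiol transferases. The AAV-GFP libraries, in replicate order, held Gsto1 at 2524, 2287 and 1740 CPM, and the AAV-GSTA4 libraries at 347, 1132, 208 and 2212 CPM. Replicates 1 and 3 of AAV-GSTA4 were far below every other library and replicate 2 lay between, whereas replicate 4 lay among the AAV-GFP libraries, so that the groups overlapped. The means were 2184 CPM ± 402 (SD, n = 3) and 975 CPM ± 919 (SD, n = 4). The log2 fold change came to -1.16 ± 0.68 (SE; adjusted p = 0.512) (unadjusted 0.121) in edgeR's quasi-likelihood test. Relative to library totals, without TMM scaling, the groups did not overlap (as for 14.0% of all genes on that scale), and the log2 fold change was -1.42 with an adjusted p of 0.327. Without AAV-GSTA4 replicate 4 it was -1.93 with an unadjusted p of 0.0115 and an adjusted p of 0.579, and without AAV-GSTA4 replicate 3 it was -0.82. In the same AAV-GSTA4 libraries human GSTA4 stood at 222, 251, 2.64 and 43.7 CPM in replicate order; the library with the least of it also had the least Gsto1, and the library with the most Gsto1 had the second least of it.

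The summed level of markers of ocular surface epithelium (cornea and conjunctiva), most of which skin also expresses, was low in the same libraries as Gsto1. Over 7 such markers the AAV-GFP libraries summed to 579, 634 and 489 CPM and the AAV-GSTA4 libraries to 73.6, 523, 83.8 and 633 CPM. Krt15, a keratin of basal epithelial cells, made up most of the sum in all 7 libraries, at 252 to 502 CPM in AAV-GFP and at 44.7, 449, 51.8 and 552 CPM in AAV-GSTA4. Krt5, Krt14 and Trp63 were also lowest in AAV-GSTA4 replicates 1 and 3. The other 3 went otherwise: Krt1 was highest in those libraries (2.89 and 2.94 CPM), and Krt10 was at 15.8 and 19.2 CPM there against 12.3 to 23.3 CPM elsewhere. Krt12 was at 2.56, 19.9 and 112 CPM in AAV-GFP and lowest in AAV-GSTA4 replicate 4 (0.184 CPM). Of the 7 markers, 6 had counts in every library and 1 (Trp63) was at 0 in AAV-GSTA4 replicate 1. The 3 genes whose log2 CPM followed Gsto1 most closely over the 7 libraries, among 11102 genes, were Cstdc5 (Pearson r = 0.998), Plekhs1 (0.985) and Acpp (0.985). Cstdc5 was at 78.2, 81.0 and 48.1 CPM in AAV-GFP and at 5.58, 23.5, 2.70 and 65.4 CPM in AAV-GSTA4. These correlations describe libraries that share their composition and scaling, and carry no p. The epithelial score used next is the mean log2 CPM of the 7 markers, not their sum, so Krt12 weighs as much as Krt15. Of the 7 markers 6 had log2 fold changes below 0, so this score is bound up with group in these libraries. With the epithelial score as a covariate, chosen after seeing the data, the log2 fold change of Gsto1 was 0.32 with an adjusted p of 1.00 (unadjusted 0.678) in edgeR's test. With a score of the rod markers as a covariate it was -3.19 with an adjusted p of 0.578 (unadjusted 0.0135). The rod score did not overlap between the groups, so that fit cannot tell rod content and group apart.

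Gsto2 was low throughout, at 3.03 to 3.40 CPM (63 to 80 counts) in AAV-GFP and 2.89 to 5.58 CPM (55 to 106 counts) in AAV-GSTA4. Its groups overlapped and its log2 fold change came to 0.45 ± 0.43 (SE; adjusted p = 0.700) in edgeR's test. Gsto2 was highest in AAV-GSTA4 replicate 3, the library with the least Gsto1, and lowest in AAV-GSTA4 replicate 1, where Gsto1 was low too.

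**Figure D2:**
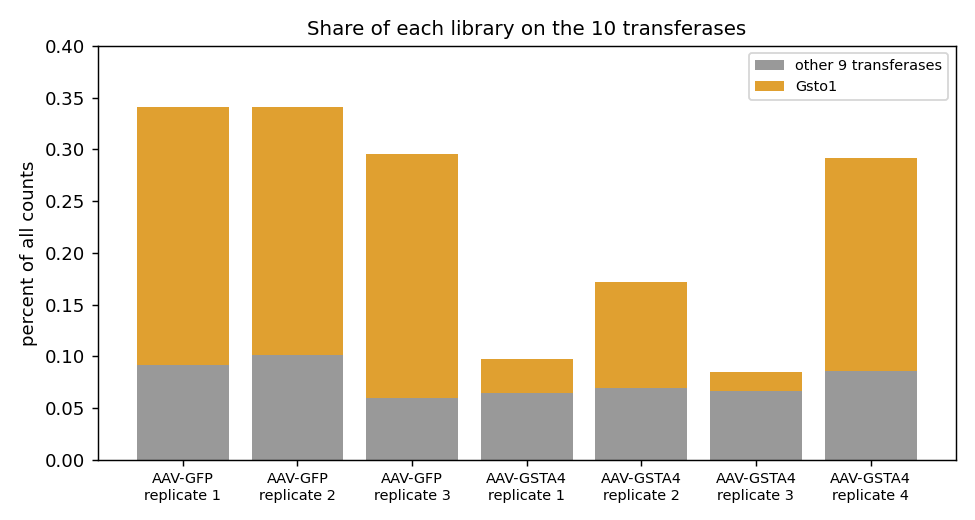
Share of all counts, without TMM scaling (vertical axis, percent), on Gsto1 and on the other 9 transferases in each library, stacked. The total is 0.296% to 0.341% in AAV-GFP and 0.0847% to 0.292% in AAV-GSTA4, and most of that difference is the Gsto1 segment.

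The 10 genes together took less of the AAV-GSTA4 libraries, and most of that difference was in Gsto1 counts. Of all counts they held 0.341%, 0.341% and 0.296% in the AAV-GFP libraries and 0.0976%, 0.172%, 0.0847% and 0.292% in the AAV-GSTA4 libraries. The last AAV-GFP share had a 95% Wilson interval of 0.293% to 0.298% and the highest AAV-GSTA4 share one of 0.290% to 0.294%, intervals that cover counting error only. Gsto1 alone made up 70.3% to 79.9% of the family's counts in AAV-GFP and 34.3%, 59.6%, 21.3% and 70.8% in AAV-GSTA4. Without Gsto1 the shares overlapped, at 0.0840% ± 0.0218 (SD, n = 3) and 0.0713% ± 0.00958 (SD, n = 4).

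Gstp1, the pi-class enzyme that conjugates electrophiles and binds the stress kinase JNK, was steady in AAV-GSTA4. It was at 151, 250 and 155 CPM in AAV-GFP and at 212, 185, 177 and 186 CPM in AAV-GSTA4. All 4 AAV-GSTA4 values lay inside the AAV-GFP range, and the log2 fold change came to 0.04 ± 0.24 (SE; adjusted p = 0.970) in edgeR's test. Of the 772 windows of 50 bases in its longest coding transcript, 62.3% occurred unchanged in a transcript of another gene, chiefly Gstp2 and a pseudogene, so its counts depend on a rule for shared reads that is not stated. Gstp2 was listed at 0.705 to 8.30 CPM. For the other 9 transferases at most 0.726% of such windows were shared.

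The theta enzymes act on small halogenated compounds and sulfate esters. Gstt2 was at 98.8, 92.1 and 51.5 CPM in AAV-GFP and at 129, 111, 164 and 152 CPM in AAV-GSTA4. Every AAV-GSTA4 library lay above every AAV-GFP library, also relative to library totals. The means were 80.8 CPM ± 25.6 (SD, n = 3) and 139 CPM ± 23.7 (SD, n = 4). The log2 fold change came to 0.78 ± 0.28 (SE; unadjusted p = 0.0185, adjusted p = 0.373) in edgeR's test, which did not pass. Without AAV-GFP replicate 3 it was 0.54 with an unadjusted p of 0.0267. It did not pass in DESeq2 either (adjusted p of 0.140) or in limma-voom (0.0927). Gstt2 was the 1 of 10 transferases at an unadjusted p under 0.05 with a higher level, a share of 10.0% against 5.27% of the 15075 genes tested. It was also the 1 whose groups did not overlap in that direction, against 6.44% of all genes. In the other direction 0 of the 10 had an unadjusted p under 0.05 and 0 did not overlap, against 6.63% and 5.61% of all genes. With 10 genes, 1 call is close to what those background shares give.

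Summed RPE markers went with Gstt2 from library to library: 73417, 58653 and 24435 CPM in AAV-GFP and 84245, 64183, 114329 and 94383 CPM in AAV-GSTA4. AAV-GFP replicate 3 was lowest in both and AAV-GSTA4 replicate 3 highest in both. Of the 18 RPE markers 13 had log2 fold changes above 0 and 5 below. The pattern was not particular to RPE markers. The 10 Mueller glia and astrocyte markers summed to 6331, 6354 and 4727 CPM in AAV-GFP and to 8540, 7407, 9880 and 9640 CPM in AAV-GSTA4. That sum was lowest and highest in the same libraries and its groups did not overlap, although 5 of these markers had log2 fold changes below 0. With an RPE score as covariate, chosen after seeing the data, the log2 fold change of Gstt2 was 0.56 with an unadjusted p of 0.00951 and an adjusted p of 0.252. With a rod score in the model the log2 fold change of Gstt2 was 0.36, at an unadjusted p of 0.347 in edgeR's test. The rod score did not overlap between the groups (8.54 to 9.90 in AAV-GFP and 7.62 to 8.48 in AAV-GSTA4). That fit therefore cannot tell rod content and group apart.

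Gstt1 was at 93.3, 95.0 and 64.1 CPM in AAV-GFP and at 78.1, 75.0, 77.6 and 108 CPM in AAV-GSTA4. AAV-GSTA4 replicate 4 alone exceeded the AAV-GFP libraries, and the log2 fold change came to 0.01 ± 0.23 (SE; adjusted p = 0.994) in edgeR's test. Gstt3, which flanks Gstt1 on the other side from Gstt2, was at 73.7, 70.9 and 32.9 CPM in AAV-GFP and at 109, 71.5, 132 and 94.6 CPM in AAV-GSTA4. Its log2 fold change came to 0.78 ± 0.32 (SE; unadjusted p = 0.0376, adjusted p = 0.397), and its groups overlapped. Gstt2 and Gstt3 were both lowest in AAV-GFP replicate 3 and highest in AAV-GSTA4 replicate 3, whereas Gstt1 was highest in AAV-GSTA4 replicate 4.

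**Figure D3:**
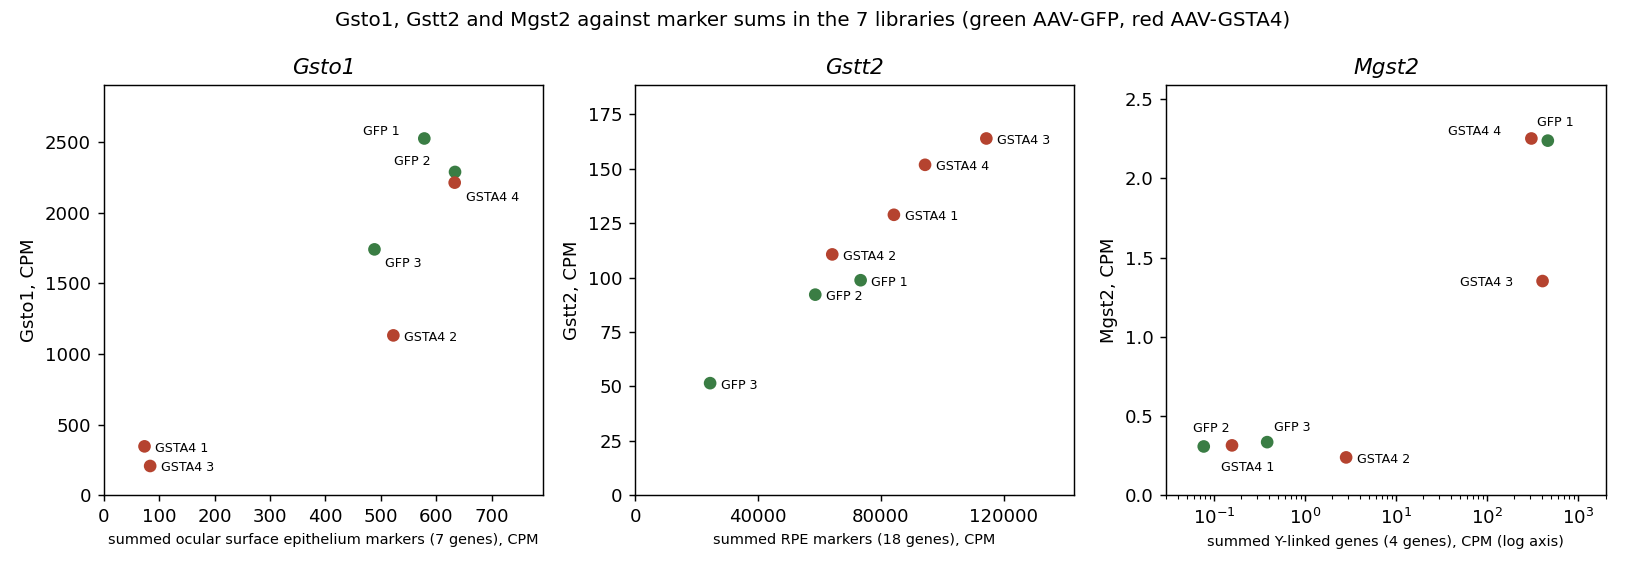
Gsto1, Gstt2 and Mgst2 (vertical axes, TMM-scaled CPM) against the summed level of ocular surface epithelium markers, RPE markers and Y-linked genes (horizontal axes, CPM, the last on a log axis); each point is a library. The 2 libraries with 73.6 and 83.8 CPM of epithelial markers are those with the least Gsto1, Gstt2 runs from 51.5 CPM at the fewest RPE markers to 164 CPM at the most, and the 3 libraries with 307 to 465 CPM on Y-linked genes are those with the most Mgst2.

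Gstz1, which isomerises maleylacetoacetate in tyrosine breakdown, was at 53.5 to 77.4 CPM in AAV-GFP and 61.2 to 102 CPM in AAV-GSTA4. Its log2 fold change came to 0.23 ± 0.25 (SE; adjusted p = 0.734) in edgeR's test. Gstk1, a mitochondrial and peroxisomal enzyme related to bacterial disulfide oxidoreductases, was at 40.0, 41.4 and 12.6 CPM in AAV-GFP and at 26.2 to 37.0 CPM in AAV-GSTA4. The AAV-GSTA4 libraries lay between AAV-GFP replicate 3 and the other AAV-GFP libraries. The log2 fold change of Gstk1 was 0.06 ± 0.38 (SE), with an adjusted p of 0.967, and without AAV-GFP replicate 3 it was -0.32 with an adjusted p of 0.564.

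Mgst1, an enzyme of the endoplasmic reticulum and outer mitochondrial membrane that conjugates electrophiles and reduces lipid hydroperoxides, was at 398, 362 and 66.9 CPM in AAV-GFP. In AAV-GSTA4 it was at 111, 257, 166 and 260 CPM. All AAV-GSTA4 libraries lay below AAV-GFP replicates 1 and 2 and above replicate 3. The log2 fold change came to -0.48 ± 0.54 (SE; adjusted p = 0.749) in edgeR's test. Without AAV-GFP replicate 3 it was -0.93 with an unadjusted p of 0.0169 and an adjusted p of 0.336, and with the RPE score as covariate -0.85 with an unadjusted p of 0.0132 and an adjusted p of 0.264. The genes that followed Mgst1 most closely over the 7 libraries were C2, a complement protease (r = 0.994), Prpf38a, a splicing factor (0.994), and Serpinb9, a granzyme inhibitor (0.990). The 8 fibroblast and scleral markers summed to 1151, 823 and 241 CPM in AAV-GFP and to 424, 525, 512 and 749 CPM in AAV-GSTA4, highest and lowest in the same AAV-GFP libraries as Mgst1, and their part in the result was not tested.

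Mgst2, which can make leukotriene C4, was near the detection limit. It had 48, 8 and 7 counts in AAV-GFP and 6, 5, 23 and 61 counts in AAV-GSTA4, or 2.24, 0.309 and 0.336 CPM and 0.316, 0.240, 1.35 and 2.25 CPM. The 3 libraries above 1 CPM were the 3 with Y-linked transcripts at 465, 407 and 307 CPM, whereas the other 4 had at most 2.83 CPM of those. The lowest of the 3 had a 95% Wilson interval of 0.901 to 2.03 CPM and the highest of the other 4 one of 0.163 to 0.694 CPM. Both groups held libraries of either kind, and the log2 fold change came to 0.12 ± 1.09 (SE; adjusted p = 0.978) in edgeR's test. Mgst3, a relative of Mgst2, was at 63.6, 45.4 and 30.4 CPM in AAV-GFP and at 40.1 to 62.7 CPM in AAV-GSTA4, with a log2 fold change of 0.06 ± 0.28 (SE; adjusted p = 0.948).

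As a family, all 10 genes passed the expression filter and were tested. In edgeR's test 0 of the 10 reached an adjusted p under 0.05, where 0 of 15075 genes (0.0%) did, and 1 of 10 had an unadjusted p under 0.05, against 11.9% of all genes. DESeq2 called 0 of the 9 for which it gave an adjusted p (it gave none for Mgst2) and 1.31% of all genes with one, and limma-voom called 0 of the 10 and 0 in all. The median log2 fold change of the 10 was 0.06 beside -0.07 for all genes, with 8 above 0 and 2 below. Of all 15075 genes tested 6720 were above 0 and 8355 below. Among the 8, Gstt1, Gstp1, Gstk1 and Mgst3 lay close to 0, at 0.01, 0.04, 0.06 and 0.06. Relative to library totals the median of all genes moved to -0.37 and that of the 10 to -0.17, with 2 above 0 and 8 below. Under that scaling 11.1% of the genes at an unadjusted p under 0.05 were higher in AAV-GSTA4, against 44.3% with TMM. Under either scaling 8 of the 10 lay above the median of all genes, and Gsto1 and Mgst1 lay below it.

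**Figure D4:**
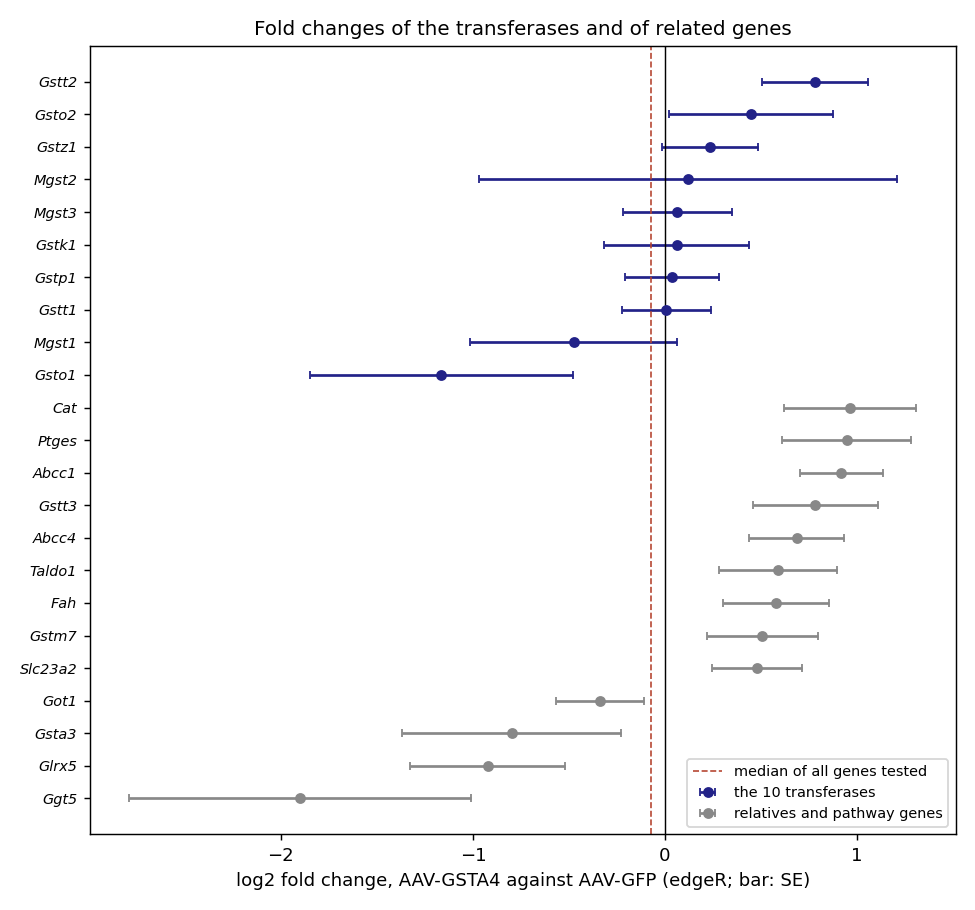
edgeR's log2 fold change, with AAV-GFP as the reference group (horizontal axis; bars are standard errors), for the 10 transferases and the 13 named relatives and pathway genes; the dashed line is the median of all genes tested. Of the 10 transferases 8 lie above 0 with TMM scaling (2 with library totals), and the bars of most of them reach 0.

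Genes around these enzymes were examined by lists, and their counts at an unadjusted p under 0.05 stand beside 5.27% of all genes higher and 6.63% lower. Among 17 relatives of the same class or fold, 14 were tested, 2 had an unadjusted p under 0.05 (Ptges and Gstt3, both higher) and the median log2 fold change was -0.15. Ptges, the prostaglandin E synthase of the Mgst1 family, was at 128, 136 and 66.5 CPM in AAV-GFP and at 271, 142, 262 and 176 CPM in AAV-GSTA4. Its groups did not overlap with TMM scaling but did relative to library totals, and its log2 fold change came to 0.95 ± 0.34 (SE; adjusted p = 0.373) in edgeR's test. Among the alpha and mu transferases 10 of 12 were tested and 0 had an unadjusted p under 0.05, with a median of 0.18. In that class Gsta3 was at 243, 226 and 66.8 CPM in AAV-GFP and at 42.4, 112, 56.4 and 200 CPM in AAV-GSTA4, and like Gsto1 it was lowest in AAV-GSTA4 replicates 1 and 3. Its log2 fold change came to -0.80 ± 0.57 (SE; adjusted p = 0.592), and Gstm7 was at 0.51 ± 0.29 (SE), with an adjusted p of 0.501.

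Of 20 genes for glutathione supply and conjugate export, all tested, 3 (15.0%) had an unadjusted p under 0.05, all higher, and the median log2 fold change was -0.01. Abcc1, which pumps glutathione conjugates out of cells, was at 72.3, 63.3 and 68.9 CPM in AAV-GFP and at 122, 102, 160 and 131 CPM in AAV-GSTA4. Its groups did not overlap with TMM scaling but did relative to library totals. Its log2 fold change came to 0.92 ± 0.22 (SE; adjusted p = 0.363) in edgeR's test. In DESeq2 the log2 fold change of Abcc1 was 0.94 with an adjusted p of 0.0152, under the threshold of 0.05. The related pump Abcc4 was at 0.69 ± 0.25 (SE), with an adjusted p of 0.373. The third gene, glutathione synthetase Gss, was at 37.3 to 69.3 CPM in AAV-GFP and at 97.5, 608, 54.5 and 104 CPM in AAV-GSTA4, and it is named here after its values were seen. AAV-GSTA4 replicate 2, with 608 CPM of Gss, was also the library with 134585 CPM on lens markers, against 3275 to 28388 CPM in the others.

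In the leukotriene and prostaglandin list 12 of 14 genes were tested, Ptges alone had an unadjusted p under 0.05, and the median was -0.10. Ggt5, which trims leukotriene C4, was at 1.49 to 4.47 CPM in AAV-GFP and 0.0960 to 1.59 CPM in AAV-GSTA4, with an adjusted p of 0.433. In tyrosine breakdown 3 of 7 genes were tested and 0 had an unadjusted p under 0.05. Fah, the step after Gstz1, was at a log2 fold change of 0.58 ± 0.28 (SE) and the transaminase Got1 at -0.34 ± 0.23 (SE), with adjusted p-values of 0.439 and 0.564 in edgeR's test.

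Of 11 genes for thiol transfer and for dehydroascorbate or arsenic reduction, Glrx5, a mitochondrial glutaredoxin of iron-sulfur cluster assembly, had an unadjusted p under 0.05. It was at 7.08 to 11.8 CPM in AAV-GFP and 3.10 to 7.35 CPM in AAV-GSTA4, with an adjusted p of 0.411, and the median of the list was -0.11. The ascorbate transporter Slc23a2 was at a log2 fold change of 0.48 ± 0.23 (SE), with an adjusted p of 0.446. Of 8 peroxisomal and redox partners, catalase (Cat) had an unadjusted p under 0.05, at 446, 382 and 193 CPM in AAV-GFP and 757, 475, 805 and 619 CPM in AAV-GSTA4. Its groups did not overlap with TMM scaling but did on library totals, its log2 fold change came to 0.96 ± 0.34 (SE; adjusted p = 0.373), and the median of the list was 0.21. In the NRF2 list of 20 genes Abcc1 alone had an unadjusted p under 0.05, the median was 0.19, and Taldo1, a pentose phosphate enzyme, was at 0.59 ± 0.31 (SE) with an adjusted p of 0.472.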

How the data were processed

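The authors deposited 1 table of raw read counts, with gene symbols as rows and libraries as columns. Per the submitters' processing notes STAR 2.7.1a and featureCounts 1.6.2 were used, with GRCm38/mm10 and GRCh38/hg38 listed as builds; the annotation, strand setting and rule for shared reads are not given in the sources used here. Per the labels' protocols, polyadenylated RNA was copied with a low-input full-length cDNA kit, amplified and cut by a transposase. No molecular identifiers are mentioned, so intervals cover counting error only. Columns were matched by library name, and no column was left over. Of the symbols, 24 were on several rows; of these the most highly counted row was taken for the symbol and the others were kept as separate features.

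Groups were compared with edgeR 4.0.16 in R 4.3.3 (quasi-likelihood), with all 7 libraries, group as the only factor, TMM scaling, edgeR's default expression filter and Benjamini-Hochberg adjustment over all 15075 genes tested (threshold 0.05). Standard errors are the fold change over the square root of F. Log2 CPM used a prior count of 2. The rod, RPE and epithelial scores were means of log2 CPM over each list's markers. Alternatives used DESeq2 1.42.0, limma-voom (limma 3.58.1), other scalings and filters, covariates, replicate blocks and each library left out. Lengths and coordinates came from GENCODE M21 and promoters from RefSeq. On simulated counts for this comparison (15075 genes, 200 changed 8-fold) the test recovered 95.5% of changed genes, and it called 0 with none changed. The changed genes were drawn from those above a minimum mean CPM, which Gsto2 and Mgst2 do not reach. Genes were simulated independently, with no outlying library, and changes under 8-fold were not simulated. In the real data human GSTA4, at a log2 fold change of 10.7, had an adjusted p of 0.363 in edgeR's test. It was not called, so the simulated recovery does not carry over to the 10 transferases. The members and gene lists were chosen with earlier results of these data known. All 10 members are named, and of each list the 2 genes with the smallest p, except 1 gene that is not reported here; likeness is named for the 2 members with the widest range among those whose log2 CPM averages 2 or more.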

Additional observations from a re-analysis of the deposited data

Results flagged for a closer look

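Among the 24 results examined for an isolated AAV-GSTA4 library (the 10 transferases, the 13 named related genes and the summed share), 1 stood out, where chance gives about 5% of them. Gstt1 in AAV-GSTA4 replicate 4, at 108 CPM, was separated from the other 3 libraries (75.0 to 78.1 CPM) by 0.905 of the group's whole range, above Dixon's 95% critical value for 4 libraries. Without that library the log2 fold change of Gstt1 was -0.10 with an adjusted p of 0.927 in edgeR's test.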

How the results depend on the processing

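No transferase reached an adjusted p under 0.05 under any of the 19 alternatives in which it could be fitted; Mgst2 could not be fitted without AAV-GSTA4 replicate 4 or with at least 10 counts in every library, and DESeq2 gave it no adjusted p. The number of all genes past the adjusted threshold went from 0 to 166 in DESeq2 and to 1 with a rod score as covariate, and it was 0 to 1 with each library left out, the 1 being human GSTA4 without AAV-GSTA4 replicate 3. The number of transferases at an unadjusted p under 0.05 went from 1 (Gstt2) to 2 with the rod score (Gsto1 and Mgst1, without Gstt2) or the RPE score (Gstt2 and Mgst1) and to 0 with the ocular surface epithelium score, while the number of all genes went from 1794 to 1215, 2161 and 606 with the rod, RPE and epithelial scores. With each library left out it was 1 to 2 (all genes 1032 to 1987): 2 without AAV-GFP replicate 3 (Mgst1 added, all genes 1917) and without AAV-GSTA4 replicate 4 (Gsto1 added, all genes 1253). On CPM of library totals 2 transferases did not overlap between groups in place of 1, and 14.0% of all genes in place of 12.0%. The difference in the summed share went from -0.164 to -0.0126 percentage points without Gsto1. The rod score did not overlap between the groups, so fits with it cannot tell rod content and group apart. The RPE and epithelial scores were chosen after seeing the data. The causes of these changes were not tested.

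The labels do not say that the replicate numbers pair libraries across groups. Same-numbered libraries had deviations from their group means correlated at -0.0889, 0.0000333 and 0.00904 by title number and -0.0889, 0.0146 and -0.128 by library number. Deviations from a group's own mean cancel within the group, so these few correlations cannot decide whether the numbers pair libraries. No AAV-GFP library shares the title number of AAV-GSTA4 replicate 4 or the library number of AAV-GSTA4 replicate 2. In a block fit such a library stands alone in its block and adds nothing to the group contrast. Leaving out AAV-GSTA4 replicate 4 without any block put Gsto1 at -1.93. With a replicate block by title number 1 gene passed the adjusted threshold (human GSTA4), Gsto1 (-2.33, adjusted p = 0.848) in place of Gstt2 was at an unadjusted p under 0.05 in edgeR's test (849 of all genes), and the log2 fold changes that turned sign were those of Gstt1 (-0.11), Mgst2 (-0.39) and Mgst3 (-0.026). With a block by library number 1 gene passed, and 2 transferases, Gstt2 and Gsto1 (-2.11, adjusted p = 0.650), were at an unadjusted p under 0.05 (1148 of all genes).

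Gstt2 stayed above 0 throughout, from 0.36 to 0.95. Log2 fold changes that turned sign were the following. On library totals Gstp1 was at -0.25, Gstt1 at -0.26, Gstz1 at -0.045, Gstk1 at -0.16, Mgst2 at -0.068 and Mgst3 at -0.18. With the rod score Gstt1 was at -0.46, Gstz1 at -0.16, Gstk1 at -0.61, Mgst2 at -1.62, Mgst3 at -0.64 and Got1 at 0.027. With the RPE score Gstp1 was at -0.039, Gstt1 at -0.15, Gstk1 at -0.25, Mgst2 at -0.48 and Mgst3 at -0.16. With the epithelial score Gsto1 was at 0.32, Gstk1 at -0.16, Mgst1 at 0.018, Mgst2 at -0.035 and Gsta3 at 0.18. With a Y-linked score Gstt1 was at -0.039, Gstk1 at -0.0065, Mgst2 at -0.26 and Mgst3 at -0.016. In limma-voom Gstp1 was at -0.16, Gstt1 at -0.050 and Gstk1 at -0.16, and with at least 10 counts in every library Gstt1 was at -0.0022. With each library left out Gstp1 ranged from -0.091 to 0.32, Gstt1 from -0.15 to 0.11, Gstk1 from -0.32 to 0.31, Mgst2 from -0.30 to 1.68 and Mgst3 from -0.16 to 0.36. Mgst2 rested on 5 to 61 counts per library.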
